A study of Homo sapiens with 12 samples.

Results

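Accessible intervals of more than 10 and up to 100 kb on the 22 autosomes were taken from a pooled ATAC-seq peak list of HT1080 cells. An interval belonged to the set when its end minus its start, as deposited, exceeded 10000 bp and did not exceed 100000 bp. Lines of the list with the same chromosome, start and end were counted as 1 interval, since each line gives a single summit (the point of highest fragment pileup). The rule found 679 such intervals among the 91278 in the list (0.744%), and they held 26547 of the 188019 summits (14.1%). They covered 18.8 Mb, which was 17.2% of the length covered by all intervals. The intervals were chosen by their length, which the peak caller set from the same pileup as the summit values. All comparisons with shorter or longer intervals below are therefore descriptions and carry no test.

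In ATAC-seq a transposase cuts and tags DNA that is not tightly packed, and stretches that yield many fragments are called accessible. HT1080 is an established human fibrosarcoma line. Cells at 100000 per mL were embedded in 800 µL of rat tail type-I collagen. The High concentration group had 1.7 mg/mL of collagen, the Medium concentration group 1.0 mg/mL and the Low concentration group 0.3 mg/mL, with 4 libraries in each group and 12 in all. All 3 groups, which include no untreated one, received the broad matrix metalloproteinase inhibitor GM6001 at 20 µM over 48 h of migration. Cells were then released with collagenase and frozen, and at most 25000 thawed cells went into each library. No label says whether the 4 libraries of a group came from separate cultures. The study asked how confinement in collagen changes accessibility, but the list analysed here is pooled over the libraries, so no value below compares concentrations, has a replicate error or has a known depth per library.

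Most accessible sites in a human cell are short stretches at promoters and enhancers where nucleosomes are depleted. Long unbroken stretches can be found where a sequence is repeated many times side by side. The human reference holds such tandem repeats in satellite DNA at and around the centromeres, which is usually packed as constitutive heterochromatin, and in arrays of gene copies such as the 5S ribosomal RNA genes. Reads from near-identical copies cannot be assigned to 1 copy with certainty, and a cell line can carry more or fewer copies than the reference. Neither point was tested here: the list gives no mapping quality and no copy number, so values at repeated copies describe the reference position, not a proven copy.

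The marker genes of the labelled cell type were checked first. Of 12 mesenchymal markers, 9 had a summit within 1000 bp of a gene end (VIM, FN1, COL5A1, COL6A1, S100A4, CDH2, ZEB1, TWIST1 and PDGFRB), with a median highest enrichment of 8.74. FAP, COL1A2 and THY1 had none. Of 10 epithelial markers, 4 had one (EPCAM, CLDN3, KRT8 and KRT18) with a median of 2.06, and of 6 blood markers, 2 had one (SPI1 and CD3E) with a median of 11.5.

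Promoter sequences from RefSeq (GRCh38.p14) show what repeated copies look like inside these intervals. Each window below spans the 250 bases before a transcription start and is printed 5′ to 3′ on the strand of the gene. Capitals mark the summit base and 10 bases on either side of it. The first 3 belong to TAF11L3 (chr5:17518117-17518366, plus strand), TAF11L7 (chr5:17585759-17586008, minus strand) and TAF11L8 (chr5:17590961-17591210, minus strand), members of a family related to the transcription factor subunit gene TAF11. They are shown because identical letters did not have their summits at 1 fixed place.

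TAF11L3: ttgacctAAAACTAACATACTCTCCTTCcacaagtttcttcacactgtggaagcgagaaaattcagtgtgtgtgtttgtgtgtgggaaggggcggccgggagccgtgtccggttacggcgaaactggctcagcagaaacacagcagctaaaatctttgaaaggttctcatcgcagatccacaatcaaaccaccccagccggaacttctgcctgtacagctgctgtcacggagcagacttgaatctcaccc
TAF11L7: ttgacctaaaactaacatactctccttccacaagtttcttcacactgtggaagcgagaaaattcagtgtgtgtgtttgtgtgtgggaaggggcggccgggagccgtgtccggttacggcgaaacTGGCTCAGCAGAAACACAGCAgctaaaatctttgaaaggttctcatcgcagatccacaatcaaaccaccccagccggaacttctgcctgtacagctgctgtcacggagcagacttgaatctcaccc
TAF11L8: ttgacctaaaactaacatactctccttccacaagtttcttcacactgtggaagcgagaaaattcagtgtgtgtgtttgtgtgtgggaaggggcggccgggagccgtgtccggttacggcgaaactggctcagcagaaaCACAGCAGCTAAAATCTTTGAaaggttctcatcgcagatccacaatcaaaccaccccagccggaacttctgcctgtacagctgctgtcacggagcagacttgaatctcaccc

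The 3 windows were identical over all 250 bases. Their summits lay at base 18, base 135 and base 149 of the window, with enrichments of 4.58, 3.98 and 6.54. Of the 8 TAF11L windows that lay in the intervals, 7 were identical and that of TAF11L9 differed at 1 base (99.6% identity), and the other 5 windows held no summit.

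The next pair belongs to CYKILR, a long noncoding RNA gene with annotated starts near both ends of a single interval of 40956 bp on chromosome 19 (36268757 to 36309712). The windows are chr19:36268834-36269083 and chr19:36309360-36309609, both on the plus strand and 40526 bp apart.

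CYKILR first start: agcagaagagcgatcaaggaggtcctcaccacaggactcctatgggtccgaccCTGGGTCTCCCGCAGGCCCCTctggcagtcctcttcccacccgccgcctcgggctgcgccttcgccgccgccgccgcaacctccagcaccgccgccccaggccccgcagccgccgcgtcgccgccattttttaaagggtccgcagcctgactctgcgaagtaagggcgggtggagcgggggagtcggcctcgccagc
CYKILR second start: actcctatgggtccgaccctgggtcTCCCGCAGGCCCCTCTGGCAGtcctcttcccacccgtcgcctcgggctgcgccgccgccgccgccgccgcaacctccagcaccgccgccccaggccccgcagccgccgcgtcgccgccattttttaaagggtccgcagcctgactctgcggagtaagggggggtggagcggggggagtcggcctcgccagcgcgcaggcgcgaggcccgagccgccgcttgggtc

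Both starts had a weak summit, with enrichments of 2.23 and 2.72, against a median of 5.93 over the 68 summits of the interval. The 21 capital bases of the first window recur in the second, in a shared run of 61 bases. Within that run the summits lay at base 29 and base 36, 7 bases apart.

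The window with the strongest summit was that of LOC124901648, a predicted protein-coding locus on chromosome 7 (chr7:63761116-63761365, plus strand). Its summit had an enrichment of 10.4 and a −log10 q of 306.

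LOC124901648: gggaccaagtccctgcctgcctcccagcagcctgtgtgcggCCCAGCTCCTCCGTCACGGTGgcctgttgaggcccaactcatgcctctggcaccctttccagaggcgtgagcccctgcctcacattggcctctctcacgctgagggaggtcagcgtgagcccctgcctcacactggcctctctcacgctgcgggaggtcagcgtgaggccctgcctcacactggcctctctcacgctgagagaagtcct

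In all, 45 windows of 38 genes lay in 11 of the intervals, and 17 of the windows held a summit. Their median GC content was 65.6%, against 58.0% over the 35116 windows of 27305 genes in the RefSeq table. Searched on both strands, the TATA box letters TATAAA were in 0 of the 45 windows (10.7% of all windows), the CCAAT box letters CCAAT in 7 (15.6%, against 32.0%), the GC box letters GGGCGG in 15 (33.3%, against 42.6%) and the AP-1 site letters TGANTCA in 0 (6.57% of all). Several of the 45 windows are near-copies of each other, so these shares do not come from 45 separate sequences.

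The intervals were mostly at the short end of their range. Their median length was 20428 bp, with quartiles of 14282 and 34006 bp and a range of 10015 to 99978 bp. By length, 329 were of 10 to 20 kb, 260 of 20 to 50 kb and 90 of 50 to 100 kb. The number of summits per interval had a median of 27 and ran from 6 to 196. Per kb of interval there were 1.41 summits, against 1.87 in autosomal intervals of at most 10 kb and 1.64 in the 43 autosomal intervals over 100 kb. The lower limit cut through a continuous range: the 5 shortest members were 10015 to 10083 bp long and had highest enrichments of 2.39 to 3.56, and the 5 intervals just below the limit were 9907 to 9980 bp long with 2.39 to 7.21. At the upper limit the 5 longest members were 96615 to 99978 bp long with highest enrichments of 4.83 to 20.3, and the 5 intervals just above it were 103259 to 114871 bp long with 5.53 to 17.7.

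Over all summits, the median enrichment of these intervals was below that of shorter and of longer ones, but it was above that of the shorter intervals with several summits. Enrichment is the authors' ratio of the pileup at the summit to the local background, and its median was 3.28 in the intervals of 10 to 100 kb (quartiles 2.63 and 4.60, range 1.19 to 34.6). It was 3.89 in intervals of at most 10 kb and 5.02 in those over 100 kb. In the 12407 intervals of at most 10 kb that held several summits it was 2.44, with a median −log10 q of 8.80, a median pileup of 67 fragments and 53.3% of summits at a −log10 q under 10. When each interval was represented by its strongest summit, the median was 4.83 in the intervals of 10 to 100 kb. It was 4.69 in those of at most 10 kb and 10.4 in those over 100 kb. A strongest summit tends to be higher where an interval has more summits, and the median number was 27, 1 and 381 in these classes. In the shorter intervals with several summits the strongest had a median of 3.31. Over all summits of the intervals of 10 to 100 kb, the authors' −log10 q had a median of 15.5 (quartiles 8.60 and 34.7, range 1.30 to 10799). It was 29.9 in all intervals of at most 10 kb and 38.9 in those over 100 kb. The pileup, the number of overlapping fragments as solved from each line's enrichment and p, was a median of 69 fragments, against 107 in both of those classes. A −log10 q under 10 was found at 31.2% of summits, at 33.7% in the shorter class and at 3.90% in the longer class. The median enrichment rose with length within the set, from 2.95 in intervals of 10 to 20 kb to 3.33 in those of 20 to 50 kb and 3.42 in those of 50 to 100 kb.

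The background under these summits was mostly the lowest in the list. The recovered local background equalled its lowest value of 20.3 fragments, within 0.2%, at 82.3% of the summits. That share was 34.4% in intervals of at most 10 kb and 83.1% in those over 100 kb. In this respect the intervals of 10 to 100 kb were close to the longer ones. Over all lines of the list the share was 53.0%. With the background at 1 fixed value, enrichment at such summits follows the pileup alone. The list does not say how this lowest value was set, so it is not read as a low local signal.

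Enrichment was lower at the edges of an interval than in its middle. With each interval divided into 10 parts of equal length, the median enrichment was 2.58 in the first part, 3.19 in the next and 3.47 in each of parts 5 to 8, and it was 2.77 in the last. The strongest summit lay in the first or last part in 38 of 679 intervals (5.60%). Within an interval the highest enrichment was a median of 2.44 times the lowest (1.21 to 18.9 times). A peak caller ends an interval where the signal falls below its limit, so position within an interval is not independent of enrichment.

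Neighbouring summits of the same interval were a median of 579 bp apart (quartiles 389 and 854, range 57 to 5186, 25868 pairs). The median was 432 bp in intervals of at most 10 kb with several summits (19867 pairs) and 528 bp in those over 100 kb (44493 pairs). Summits cannot be further apart than their interval is long. Those shorter intervals had a median length of 1005 bp, so the length rule itself limits wide distances there. The most frequent distance was 317 bp, and 473 pairs (1.83%) lay within 5 bp of it. Summit spacing need not follow a repeat period, so no statement about repeat periods is drawn from it. The 5S ribosomal RNA genes, for example, repeat at a median of 2241 bp, while summits there were a median of 641 bp apart. Distances under 200 bp were found in 379 pairs and distances over 2000 bp in 426 pairs. The median spacing of single intervals ran from 337 to 1951 bp, with a median of 614 bp over the intervals. The tightest 3 were gene-free intervals on chromosome 1 at 143243294 (337 bp), chromosome 22 at 10717206 (349 bp) and chromosome 4 at 49631515 (367 bp), and their median enrichments were 7.45, 7.14 and 8.89. The widest 3 all lay on chromosome 17, at 24559062 (1951 bp), 24263734 (1543 bp) and 25574962 (1366 bp), and had median enrichments of 2.16 to 2.35.

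**Figure D1:**
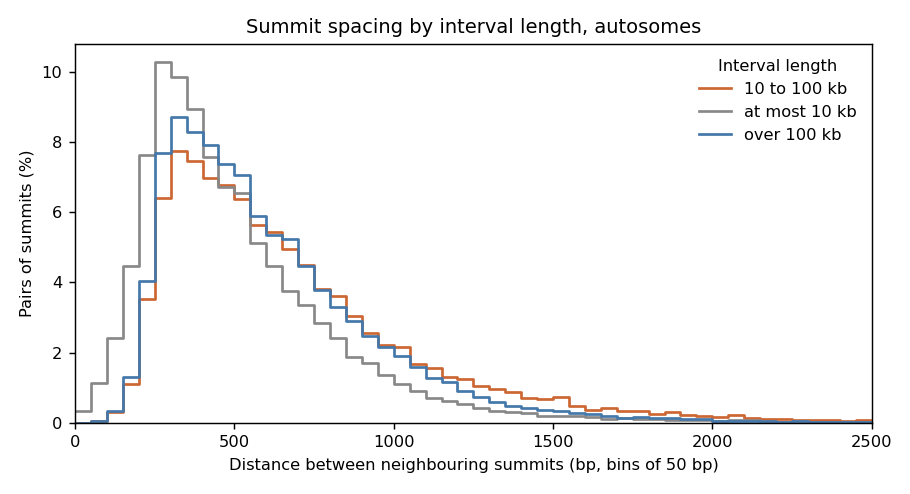
Distance between neighbouring summits of the same interval (x axis, bp, bins of 50 bp) as a percentage of pairs (y axis) for autosomal intervals of 3 length classes. The curve for intervals of 10 to 100 kb has its median at 579 bp and lies to the right of the curve for intervals of at most 10 kb, whose median is 432 bp. Short intervals leave less room for wide distances.

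Chromosomes differed widely in how many of these intervals they held. Chromosome 18 had 137, chromosome 17 had 83, chromosome 4 had 67, chromosome 3 had 61 and chromosome 10 had 46. These 5 together held 394 of 679 (58.0%, Wilson 95% interval 54.3 to 61.7). The Wilson interval takes the 679 as separate draws. Many lay close together and the 5 were picked for their high counts, so it does not measure the uncertainty of this share. Chromosomes 13, 2, 21, 22 and 14 had 31 to 40 each, and the other chromosomes with any had 1 to 21. Chromosome 11 had 0, and chromosomes 6 and 12 had 1 each. Within 1 Mb of an interval over 100 kb lay 273 of the intervals (40.2%), against 1.29% of the intervals of at most 10 kb. The share depended on the setting: it was 68.5% when intervals less than 1 kb apart were joined first and 12.1% with a window of 100 kb. A further 265 (39.0%) lay on chromosomes 3, 4 and 18, which had no interval over 100 kb. The gap to the next interval of any length had a median of 1481 bp, against 12955 bp for intervals of at most 10 kb.

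**Figure D2:**
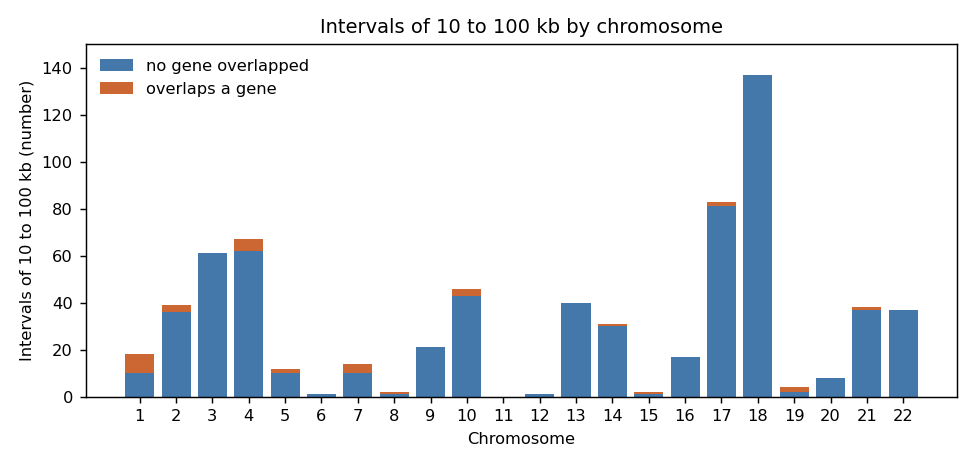
Number of intervals of 10 to 100 kb (y axis) on each autosome (x axis), with those that overlap a RefSeq gene in orange and the rest in blue. Chromosome 18 has the most, 137, of which 0 overlap a gene, and chromosome 11 has 0.

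Joining intervals whose gaps were at most 1 Mb, a distance chosen after the data were seen, gave 62 clusters. The 12 clusters with at least 10 intervals held 584 of the 679 (86.0%), and 27 intervals stood alone. The largest cluster lay on chromosome 18 from 15525532 to 20560163 and spanned 5035 kb with 137 intervals of this class and 352 shorter ones. Intervals of any length covered 82.2% of that span, 63.3% of it lay in intervals of 10 to 100 kb, and no gene of the RefSeq table lay in it. All of its summits were at the lowest background, and their median enrichment was 2.86 and their median spacing 695 bp. Its intervals had highest enrichments of 2.30 to 20.3 with a median of 3.89, and only 1 of 137 reached 10, the interval of 98692 bp at 16227488.

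The cluster on chromosome 17 (22375745 to 26877812, 82 intervals) had the same sparse spacing, a median of 709 bp, but reached far higher values. Its median enrichment was 3.28, and 16 of the 82 intervals reached an enrichment of 10. The cluster on chromosome 10 (39951086 to 42321499, 39 intervals) had a median enrichment of 6.46, and 31 of its 39 intervals reached 10. Its weakest interval, at 41223845, had a median of 2.70 and a highest enrichment of 4.78. Only 53.5% of its summits were at the lowest background, against 84.2% on chromosome 17. The clusters on chromosomes 4 (49091335 to 51813075, 62 intervals), 13 (16128513 to 18049838, 39), 22 (13129202 to 16381500, 36), 21 (9811056 to 12912963, 35), 2 (91403811 to 94166038, 34) and 14 (16251224 to 18170054, 30) had median enrichments of 2.91 to 3.52. The lowest median enrichment of the 12 was that on chromosome 3 (90504942 to 93603989, 60 intervals), at 2.63, with a median −log10 q of 8.60. On chromosome 9 (43385105 to 45517402) 18 intervals of this class, 6 longer and 16 shorter ones together covered 98.0% of the span. The cluster on chromosome 16 (34062273 to 34961655, 12 intervals) covered least, with 29.1% of its span in any interval. No annotation of centromeres or repeats was used, and the type of DNA in the clusters is therefore not stated.

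**Figure D3:**
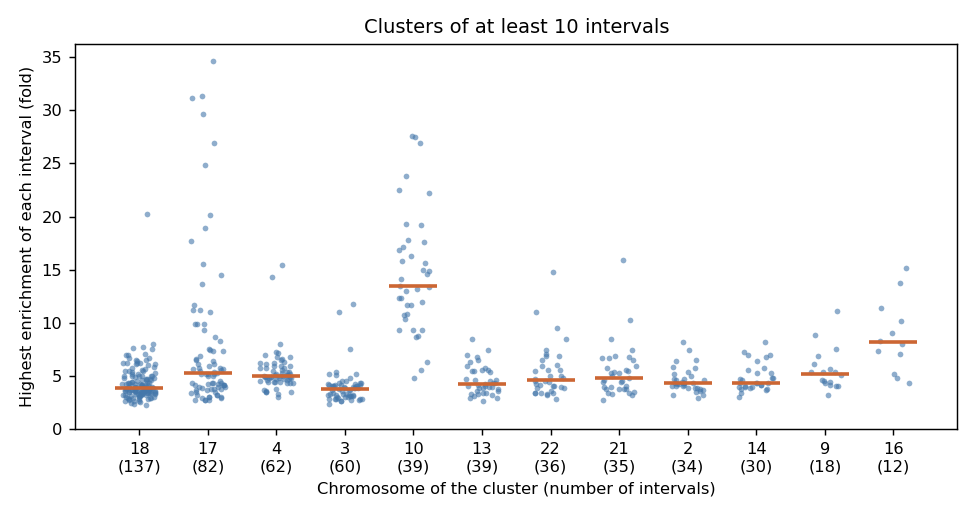
Highest enrichment (y axis, fold) of each interval, as points, in the 12 clusters of at least 10 intervals (x axis, chromosome with the number of intervals), with the median as a bar. The cluster on chromosome 10 has a median of 13.5, that on chromosome 16 has 8.16, and the rest have 3.82 to 5.25.

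The 10 intervals with the highest enrichment all lay in the clusters of chromosomes 17 and 10. The strongest was on chromosome 17 from 25911889 to 25937300, with 23 summits over 25412 bp. Its summit at 25920220 had an enrichment of 34.6, a pileup of 1935 fragments and a background of 54.9, while the median of its summits was 3.52. The other 5 on chromosome 17 reached 24.8 to 31.4 and had medians of 2.67 to 6.34. The 4 on chromosome 10 reached 23.8 to 27.5, with medians of 4.24 to 8.91. In each of the 10 the highest summit stood well above the median of its own interval. The 5 intervals with the lowest highest enrichment, 2.30 to 2.58, lay on chromosomes 18 and 3, were 10027 to 11590 bp long and had −log10 q values of at most 8.16.

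The 10 longest intervals were 92595 to 99978 bp long, and 9 of them overlapped no gene. They lay on chromosomes 22, 13 and 14 (2 of them on each), 18, 17 and 9, with the longest, at NBPF20, on chromosome 1. Median enrichment in the gene-free 9 was 2.77 to 6.94. The highest of these medians belonged to the interval on chromosome 17 at 26783001, which had 196 summits, the most in the set. That interval had a median spacing of 436 bp, and the 8 others had 501 to 753 bp.

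Genes were nearly absent from the intervals. Of 679, 33 overlapped a gene of the RefSeq table by at least 1 bp (4.86%, Wilson 95% interval 3.48 to 6.75), and each of the 33 had a summit inside a gene. In intervals of at most 10 kb, which have less length in which to meet a gene, the share was 68.3%, and it was 0 of 43 in those over 100 kb. A protein-coding gene was overlapped by 19 intervals, and 16 had at least 50% of their length inside a gene. The remaining 646 lay a median of 864907 bp from the nearest gene (quartiles 459998 and 1419480 bp), 261 of them more than 1 Mb away and 53 within 100 kb. Of all 26547 summits, 1102 (4.15%) were inside a gene.

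Intervals with a gene had stronger summits than those without. The median enrichment was 6.74 over 1553 summits in the 33 intervals with a gene and 3.19 over 24994 summits in the 646 without. Median −log10 q was 129 and 14.4, and the median pileup was 274 and 68 fragments. The background was at its lowest value for 6.83% of summits in intervals with a gene and for 87.0% in those without. Their lengths were alike, with medians of 20434 and 20398 bp, and summits were a median of 515 and 584 bp apart. Their positions were not alike: 1 of the 33 and 272 of the 646 lay within 1 Mb of an interval over 100 kb. Of the 33, 15 stood alone, against 27 of all 679. Gene overlap thus went with position, and the part of each in the difference in enrichment was not tested. Of the 33 intervals, 24 had a median enrichment of 6 or more, 7 of 4 to 6 and 2 of 2 to 4. Of the gene-free intervals, 59 also reached 6 or more, and 27 of these 59 lay on chromosome 10. The gene-free intervals with the highest −log10 q were on chromosome 1 from 143211768 to 143241966 (10799, with a pileup of 15015 fragments) and on chromosome 5 from 49656447 to 49667358 (9991 and 13109 fragments). The former sat in a run of 4 intervals that filled 93.0% of 91.4 kb and had a median −log10 q of 1995.

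**Figure D4:**
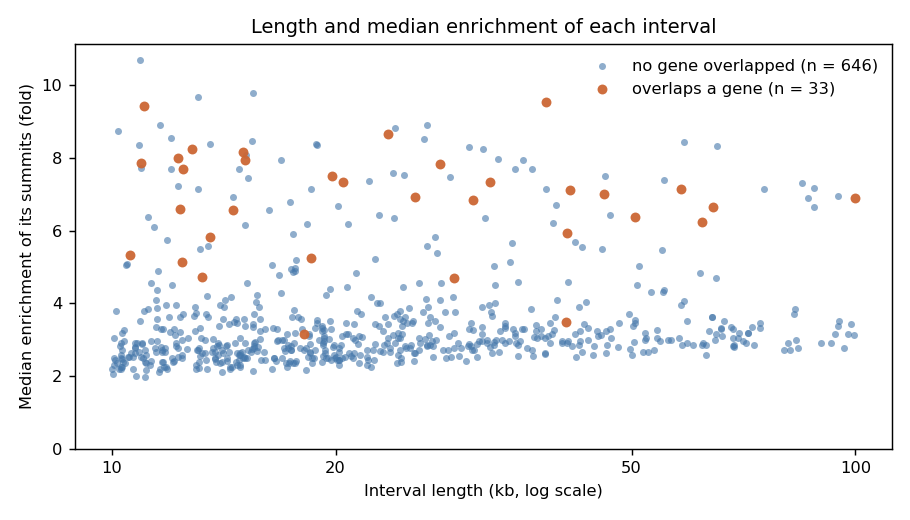
Median enrichment of the summits (y axis, fold) against length (x axis, kb, log scale) for each interval, with the 33 that overlap a gene in orange and the 646 that do not in blue. Of the orange points 24 lie at 6 or more, and 522 of the blue points lie between 2 and 4.

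The overlapped genes were few and mostly members of repeated families. They numbered 135 of the 56756 genes on the autosomes in the table: 53 protein-coding genes, 19 long noncoding RNA genes, 34 pseudogenes, 3 transcribed pseudogenes, 8 small nuclear RNA genes, 17 ribosomal RNA genes and IGK. The 17 ribosomal RNA genes were 34.7% of the 49 in the table, against 0.277% for protein-coding genes and 0.238% for all. The 8 genes that the table types as small nuclear RNA were 5.30% of 151. They include SNAR-A14, SNAR-A5, SNAR-A6 and SNAR-A7, which are small NF90-associated RNA genes. No microRNA gene of 1793 and no tRNA gene of 439 was overlapped. Genes of a tandem array fall into 1 interval together, so these are not separate hits.

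The 5S ribosomal RNA genes lay in 1 interval on chromosome 1, from 228608465 to 228646817. The 5S RNA is a structural RNA of the large ribosomal subunit, transcribed by RNA polymerase III from a promoter inside the gene. All 17 copies, RNA5S1 to RNA5S17, lay in the 38353 bp of the interval at a median spacing of 2241 bp (2215 to 2242). The interval had 50 summits with a median enrichment of 9.53 (8.19 to 11.9), the highest median among the 33 intervals with a gene. Of the 17 copies, 13 had a summit inside their 121 bases and 16 had one within 200 bp. The 13 summits inside a copy had a median enrichment of 10.5 (9.65 to 11.3), and the 37 elsewhere had 9.31 (8.19 to 11.9), so their ranges overlapped. In 14 copies a summit lay between 50 bases before and 100 bases after the lower end of the gene, a window picked from the values. The strongest −log10 q was at RNA5S3 (2972, with a pileup of 4532 fragments), and the summit near RNA5S17, at the edge, had the lowest of the interval (918 and 1662 fragments). The background of the array was high throughout, with a median of 372 fragments. The interval also reached the pseudogene DUSP5P1.

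**Figure D5:**
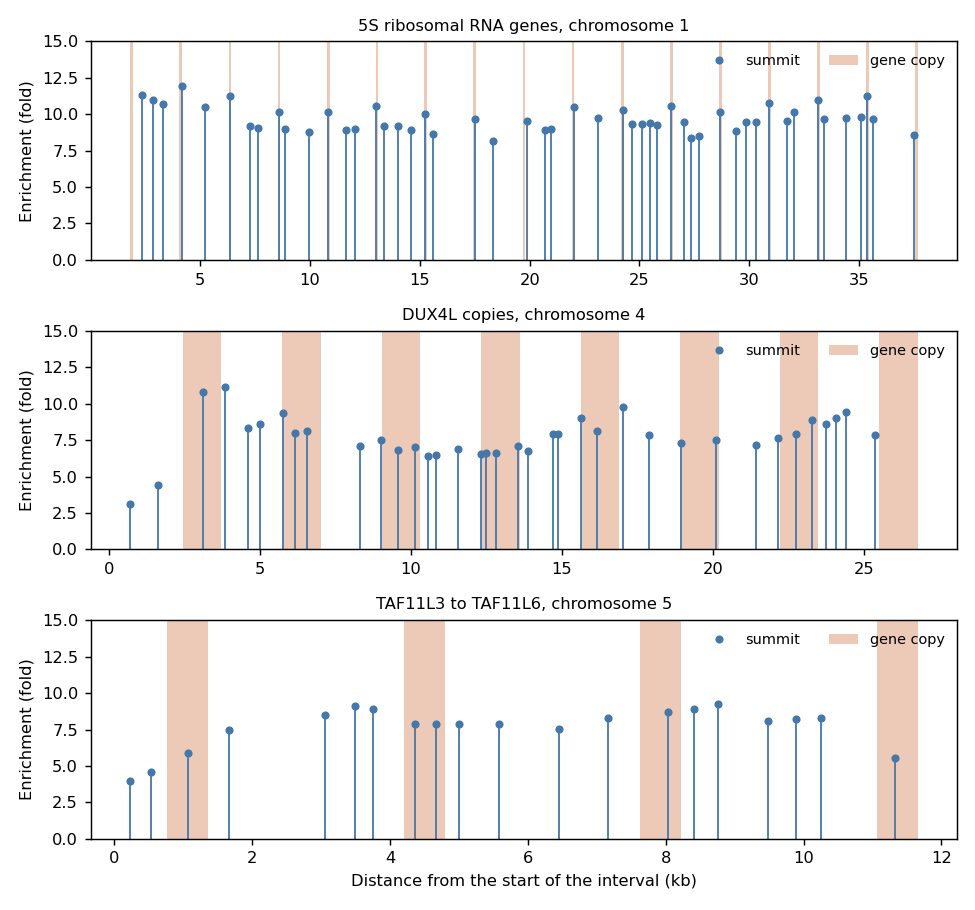
Enrichment of each summit (y axis, fold) along 3 intervals that hold gene arrays (x axis, kb from the start of the interval), with gene copies shaded. In the 5S array 13 of 17 copies have a summit inside them, while in the DUX4L and TAF11L arrays summits lie in and between the copies.

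The small NF90-associated RNA genes SNAR-A14, SNAR-A5, SNAR-A6 and SNAR-A7 lay in another interval, on chromosome 19 (50096464 to 50107420, 10957 bp). These short RNA genes are also transcribed by RNA polymerase III. They took up 4.42% of the length of the interval, and 12 of its 13 summits lay outside them. Their copies are 121 bases long and a median of 3064 bp apart. The strongest summit near each copy had an enrichment of 11.2 at SNAR-A14, 12.1 at SNAR-A5, 12.6 at SNAR-A6 and 8.77 at SNAR-A7. All 4 lay 102 to 243 bases after the lower end of the copy, 3 of them just outside it. The interval had 13 summits with a median enrichment of 7.87.

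A similar interval on chromosome 17 (43265626 to 43278853) held 4 small nuclear RNA loci, LOC124904139, LOC124904140, LOC124904146 and LOC124904141, which are named after their values were seen. Many small nuclear RNAs are parts of the spliceosome. The strongest summits at or near them had enrichments of 10.7, 11.8, 12.1 and 7.68, and pileups of 5759, 8850, 8713 and 4092 fragments. The 16 summits outside the loci had a median enrichment of 4.43. Their range of 2.87 to 12.1 spanned both summits inside a locus. The background of the interval was the highest median among those with a gene, 721 fragments.

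The DUX4L genes, pseudogene or near-identical copies of the double homeobox gene DUX4 in the D4Z4 macrosatellite repeat, occurred in 3 intervals at chromosome ends. Of 47 genes whose symbol starts with DUX4 on the autosomes, 22 were overlapped. On chromosome 4 (190065496 to 190093084) 8 copies lay a median of 3294 bp apart, beside the long noncoding RNA gene DBET. The 37 summits of that interval had enrichments of 3.13 to 11.1 with a median of 7.84, and 7 of the 8 copies held at least 1 summit. Summits inside copies had a median of 7.70 and those outside 7.84. On chromosome 10 the intervals from 133664593 to 133684356 and from 133740694 to 133761127 held 7 copies each, and all 14 had a summit inside. The medians of these intervals were 7.49 and 7.35, with highest values of 12.2 at DUX4L25 and 12.3 at DUX4L13. Their edge copies were weaker: DUX4L28 and DUX4L20 had 4.15 and 1.65, and DUX4L29 and DUX4L15 had 6.23 and 3.66.

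The USP17L genes, which encode deubiquitinating enzymes, occurred in 2 intervals on chromosome 4. Of 29 genes whose symbol starts with USP17L, 23 were overlapped. The interval from 9210623 to 9272743 held 13 copies a median of 4747 bp apart, and that from 9323062 to 9368998 held 10 at 4745 bp. All 23 copies had a summit inside. Median enrichment was 6.23 over 105 summits in the former and 7.01 over 74 in the latter. The highest values were 8.61 and 8.58, and the lowest were 1.74 and 3.05. In the latter, 9 of 10 copies had a summit between 350 and 500 bases after the lower end of the gene, again a window picked from the values. The window picked in the same way in the former lay elsewhere, in the 300 to 150 bases before the lower end, with 8 of 13 copies. Its edge copies differed: USP17L10 reached only 2.77, with a pileup of 62 fragments, while USP17L22 reached 8.61.

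The TAF11L genes occurred in 2 intervals on chromosome 5. TAF11L3 to TAF11L6, spaced exactly 3434 bp apart, lay from 17517605 to 17529888 with 20 summits and a median enrichment of 7.99 (3.96 to 9.24). TAF11L7 to TAF11L10 lay from 17580826 to 17599354 with 33 summits and a lower median of 5.23 (1.55 to 10.2). The strongest summit inside each copy was 5.90 at TAF11L3, 7.87 at TAF11L4, 8.73 at TAF11L5 and 5.54 at TAF11L6. In the other interval it was 5.41 at TAF11L7, 6.58 at TAF11L8, 8.32 at TAF11L9 and 8.52 at TAF11L10. Among these values the lowest of the first interval belonged to its outer copies, TAF11L3 and TAF11L6.

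Another 4 intervals lay inside NBPF genes, a family on chromosome 1 that encodes proteins with many Olduvai repeats. They were the longest of the set at NBPF20 (145293058 to 145393035, 99978 bp), and those at NBPF10 (146067388 to 146125630), NBPF14 (148534472 to 148575760) and NBPF19 (149488810 to 149553182). Each lay within its gene. Their median enrichments were 6.90, 7.15, 7.12 and 6.65, their highest were 8.74, 8.58, 8.38 and 8.77 and their lowest 2.74, 1.72, 2.62 and 2.67. Of 23 NBPF genes on the autosomes, the other 19 were not overlapped.

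Single protein-coding genes held intervals within their bodies. BRF1, which encodes a subunit of the RNA polymerase III initiation factor TFIIIB, held 12 summits from 105229762 to 105240804 on chromosome 14, with a median enrichment of 9.42 (8.53 to 12.5). TTC34, a tetratricopeptide repeat protein gene on chromosome 1, held 2 intervals, from 2652054 to 2702602 with a highest enrichment of 8.88 and from 2746599 to 2777179 with 11.4. DMBT1, a gene for a secreted scavenger receptor protein with repeated domains, held 15 summits from 122601220 to 122616217 on chromosome 10, with a median enrichment of 8.16 and a highest of 10.1. PTPRN2, a receptor-type tyrosine phosphatase gene, held 20 summits from 158330054 to 158342533 on chromosome 7 at 6.52 to 9.41. MUC12, a membrane mucin gene, was the only one of 23 MUC genes overlapped, with 18 summits from 100991699 to 101004058 on chromosome 7 at 1.64 to 9.16. Exon and intron boundaries were not used here, so where in these genes the summits lay was not determined.

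Predicted loci on chromosome 7 lay in a further interval, from 63749704 to 63764822. The 11 protein-coding loci there, LOC124901644 to LOC124901652, LOC124901797 and LOC124901798, have no assigned function. The interval had 28 summits with a median enrichment of 7.95 (1.82 to 10.4). It held LOC124901648, whose window is printed above.

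The immunoglobulin kappa locus IGK, which encodes antibody light chains, held 2 intervals on chromosome 2 that differed in strength. The interval from 89772930 to 89801747 had 58 summits, a median enrichment of 4.68 and a highest −log10 q of 77.7. The interval from 89811371 to 89834904 had 43 summits, a median enrichment of 8.66, a highest of 14.0 and a highest −log10 q of 6071. The 14.0 was the highest enrichment among the 33 intervals with a gene. C2orf78 on the same chromosome, named after its values were seen, had the weakest of the 33, with 34 summits at 2.35 to 4.03 and all at the lowest background.

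The remaining intervals with a gene overlapped long noncoding RNA genes, pseudogenes or predicted loci without an assigned function. Among them, the interval on chromosome 17 from 22375745 overlapped FLJ36000 and 2 other long noncoding RNA genes and had 43 summits with a median enrichment of 7.33. The interval on chromosome 21 from 9811056 reached into LINC01667, also a long noncoding RNA gene, with 45 summits and a median of 6.92, and each of these 2 intervals was the first of its cluster. The interval on chromosome 15 from 101752641 reached into DNM1P47, a dynamin pseudogene, only at its upper end. That interval had 21 summits with a median of 8.24, and 1 of them lay inside the gene. The weakest of these intervals was on chromosome 4 from 131723793, with 72 summits over 40770 bp and a median of 3.48.

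Genes of the pathways that the study's title concerns did not lie in these intervals. Of the lists, 0 of 18 heterochromatin genes on the autosomes were overlapped, among them SETDB1, EHMT2, CBX5 and EZH2, which write or read repressive histone methylation. The counts were also 0 of 13 for nuclear envelope genes such as LMNA and LBR, 0 of 14 for mechanosensitive genes such as YAP1 and CCN2, and 0 of 19 for matrix and invasion genes such as MMP14 and ITGB1. Among repeated families, 0 of 670 ZNF zinc finger genes and 0 of 438 pseudogenes of mitochondrial genes were overlapped. The RNU1-, RNVU1- and RNU2- symbol groups also had 0. These groups were matched by symbol only, so the small nuclear RNA loci overlapped on chromosome 17, which have LOC symbols, were not counted in them. The genes of the 45S ribosomal RNA precursor and its 28S, 18S and 5.8S products had 0 as well. Of the families listed as common near centromeres, all except NBPF and DUX had 0, among them the 16 POTE, 61 GOLGA and 19 ANKRD20A genes. The DUX genes overlapped were the 22 DUX4L copies at chromosome ends. With 0.238% of all autosomal genes overlapped, a count of 0 in lists of 13 to 19 genes is near that background. Few or no genes would be met at that share in the larger families either, up to the 670 ZNF genes. The counts of 0 are therefore not read as a result about any list or family.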

How the data were processed

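ATAC-seq was run on 12 HT1080 libraries, 4 at each of 3 collagen concentrations. The submitters' processing notes name fastp 0.20.0, Bowtie2 2.4.3, deepTools 3.5.0, SAMtools, MACS2 2.2.7.1 and the build hg38, with no role or order. Settings, read filters and the treatment of duplicates and of reads with several matches are not given in the sources used here, nor whether a control was used. These could change which repeated stretches were called and how strongly.

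The deposited file was 1 peak list of 10 columns for the whole series. Its enrichment column was read as the authors' ratio (fold) of pileup over background. The p-value and q-value columns were deposited on the −log10 scale. The deposited score equalled −log10 q times 10, truncated, in 99.8% of lines and was not used further. The summit position was the authors' too. No column names a library, so replicate error and depth per library are unknown and no test was run.

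Pileup and background were solved from enrichment and p, taken as (pileup + 1)/(background + 1) and a Poisson tail, a model that no label states. It returned a whole pileup, within 0.05, in 99.96% of lines. The 80 exceptions included 1 summit of the intervals described here. On 5000 cases simulated under this same model, the solver returned the pileup in 100%. That checks the arithmetic only and could not test whether the model holds for these data. Genes came from the RefSeq table of GRCh38.p14 (59792 genes), which gives no strand and no exons, and promoter windows from the RefSeq promoter table of the same build. A genome sequence was not used here, so the intervals' own sequence was not described. Wilson intervals cover counting error only and take the intervals as separate draws, although most lay in clusters. Python 3.11.15, numpy 2.4.6, pandas 2.3.3, scipy 1.17.1 and matplotlib 3.10.9 were used.

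The intervals named were the 10 longest, the 10 with the highest enrichment, the 5 with the lowest highest enrichment, the 5 on either side of each length limit and the 5 chromosomes with most intervals. The genes named were the 25 protein-coding and 10 other genes in the intervals with the highest enrichment, and every overlapped gene of the fixed lists. An item that the rule names is not reported here. CYKILR, C2orf78, DBET, DUSP5P1, FLJ36000, LINC01667, DNM1P47 and the 4 small nuclear RNA loci fall outside that rule and were chosen after their values were seen, as were the gene-free intervals picked for spacing or −log10 q. The intervals and lists were chosen with earlier results of these data known. Alternatives changed the length limits, the sequences included, the joining of intervals, the distance and overlap rules and the summits used.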

Additional observations from a re-analysis of the deposited data

Results flagged for a closer look

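Intervals of 10 to 100 kb were also present on sequences that the descriptions above do not use, and the pooled list has no control sample to set them against. There were 66, with 3344 summits, a median enrichment of 5.93 and a median −log10 q of 102. Chromosome X had 5, chromosome Y had 12, alternate haplotype sequences had 12, unlocalised sequences had 21, unplaced sequences had 15 and the mitochondrial sequence had 1. On X the strongest, from 115843509 to 115888813, overlapped the long noncoding RNA genes DANT1 and DANT2 and had 62 summits with enrichments up to 11.8. On Y the longest, from 56673307 to 56771354, had 193 summits and a median −log10 q of 2443. The mitochondrial interval had 18 summits with a median enrichment of 1.46.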

How the results depend on the processing

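Of 57 values recomputed for 9 results over 14 alternatives, 17 stayed within the margin and 40 moved. The 9 results are counts, shares and medians without a sign, so a reversal was not possible. The margin was a factor of 1.5 for a count and the 95% interval of the value for a share or a median, which covers counting error only. With a lower limit of 5 kb there were 1137 intervals with 16.3% of the list's summits, 35.5% lay within 1 Mb of an interval over 100 kb, and medians were 3.19 for enrichment and 14.4 for −log10 q. With a lower limit of 20 kb these values were 350, 10.8%, 48.3%, 3.38 and 16.5, the median spacing was 567 bp and 81.0% of summits were at the lowest background. With an upper limit of 50 kb there were 17400 summits (9.25%), 36.3% lay within 1 Mb, spacing was 588 bp, medians were 3.19 and 14.6 and 83.8% were at the lowest background. With all sequences in the list the share of summits was 15.9%, spacing 564 bp, medians 3.38 and 17.1 and the share at the lowest background 76.6%. With intervals less than 1 kb apart joined these values were 12.7%, 597 bp, 3.19, 14.8 and 80.4%, and 68.5% lay within 1 Mb. That share was 12.1% with a window of 100 kb and 56.0% with 5 Mb. The share overlapping a gene was 2.36% when at least 50% of the interval had to lie in the gene and 2.80% with protein-coding genes only. With summits of −log10 q of at least 10, spacing was 564 bp and medians were 3.89 and 23.5. The median of the intervals' own median spacings was 614 bp, and the strongest summit of each had medians of 4.83 and 36.1. No paired analysis was possible because the list has no column per library. Depth per library is unknown, so what depth limits could not be given.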
